A study of Drosophila melanogaster with 2 samples.

Results

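Crol binding was described over 10 genes of the Notch pathway: the receptor gene N (Notch), the ligand genes Dl (Delta) and Ser (Serrate), the ubiquitin ligase genes neur (neuralized) and mib1 (mind bomb 1), the nuclear factor genes Su(H) (Suppressor of Hairless) and H (Hairless), and the regulators fng (fringe), numb and sca (scabrous). The genes were chosen by name from 18164 annotated genes on 6 chromosome arms, and all 10 were found in the annotation, Dl under the symbol Delta. Chromatin immunoprecipitation followed by sequencing (ChIP-seq) recovers the DNA that a protein occupies. Here it was carried out with an anti-GFP antibody on 2 biological replicates of 1 group, whole embryos of a D. melanogaster strain labelled crol-GFP, which carries the zinc finger protein Crol fused to eGFP. Embryos were 0 to 24 h old, so all embryonic stages and tissues are mixed and a peak cannot be assigned to a cell type. One label field names crol and not GFP as the antibody, and control samples are not analysed here. The authors' conservative list holds 9211 peaks that repeated between the replicates, and its signal is the authors' peak height, with no scaling stated. The depth of the libraries is unknown.

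Notch is a transmembrane receptor that is activated by ligands on neighbouring cells. Ubiquitin ligases drive endocytosis of the bound ligand, the receptor is then cleaved, and its intracellular part enters the nucleus, where it joins the DNA-binding protein Su(H). In the fly embryo the pathway is known for lateral inhibition, by which single neural precursors are set apart from their neighbours, and for fate choices after asymmetric division. Crol is encoded by an ecdysone-regulated gene.

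Sequences of 50 bases on each side of the summit, the point of highest signal in a peak, are shown for the strongest peak of 7 members, so that the DNA under each can be compared. They are plus strand sequences of the dm6 assembly from the RefSeq copy, and capitals mark matches, on either strand, to 7 short words: a run of 5 or 6 G, where the longer contains the shorter, the GA repeat GAGAG, the CA repeat CACACA, the Zelda-type word CAGGTA, the E box CAGCTG, and the Su(H)-type word GTGGGAA or its variant GTGAGAA. The windows are chrX:3163156-3163256 for N, chr3R:19321868-19321968 for Dl, chr3R:27186100-27186200 for Ser, chr3R:9029534-9029634 for neur, chr3L:16011405-16011505 for mib1, chr3L:20949916-20950016 for fng and chr2L:9447580-9447680 for numb.
N: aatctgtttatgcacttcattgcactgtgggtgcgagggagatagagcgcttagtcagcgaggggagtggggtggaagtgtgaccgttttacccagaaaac
Dl: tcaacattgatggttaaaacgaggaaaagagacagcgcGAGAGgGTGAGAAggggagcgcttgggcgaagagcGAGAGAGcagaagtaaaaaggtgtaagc
Ser: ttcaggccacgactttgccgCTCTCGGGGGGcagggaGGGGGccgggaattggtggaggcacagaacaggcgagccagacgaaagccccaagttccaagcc
neur: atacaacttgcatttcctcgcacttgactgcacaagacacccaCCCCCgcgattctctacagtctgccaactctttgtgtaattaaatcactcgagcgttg
mib1: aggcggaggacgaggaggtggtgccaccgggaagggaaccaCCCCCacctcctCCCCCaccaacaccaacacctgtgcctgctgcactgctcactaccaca
fng: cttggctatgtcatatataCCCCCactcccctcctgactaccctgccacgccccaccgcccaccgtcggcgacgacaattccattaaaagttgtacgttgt
numb: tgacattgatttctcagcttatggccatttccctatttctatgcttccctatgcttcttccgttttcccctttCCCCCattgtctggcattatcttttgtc
A run of 5 G or C lay in the windows of Ser, neur, mib1, fng and numb. In mib1 the runs began 9 bases before and 3 bases after the summit, and in Ser a run of 6 G and a separate run of 5 G began 25 and 13 bases before it. The Dl window held GTGAGAA, the form of word that Su(H) is known to bind, 6 bases before the summit, among 3 matches to GAGAG. The N window held none of the words.

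Crol peaks were found at 8 of the 10 genes. A gene's region ran from 2 kb upstream of its most distal transcription start site (TSS) to the gene end, and a peak was counted where its summit fell. The 8 genes held 28 peaks, which is 0.304% of the list, and Su(H) and H held none. The separate lists of replicate 1 and replicate 2 held 21 and 15 peaks in the same regions. Of all 13945 protein-coding genes, 28.4% had a peak in the region. The members are long, with a median region of 23.8 kb against 4.17 kb for protein-coding genes, and 16.6 peaks would be expected over the 10 regions from their length. Within 500 bp of an own TSS, 4 members (mib1, fng, numb and sca) had a peak, against 15.5% of protein-coding genes.

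**Figure D1:**
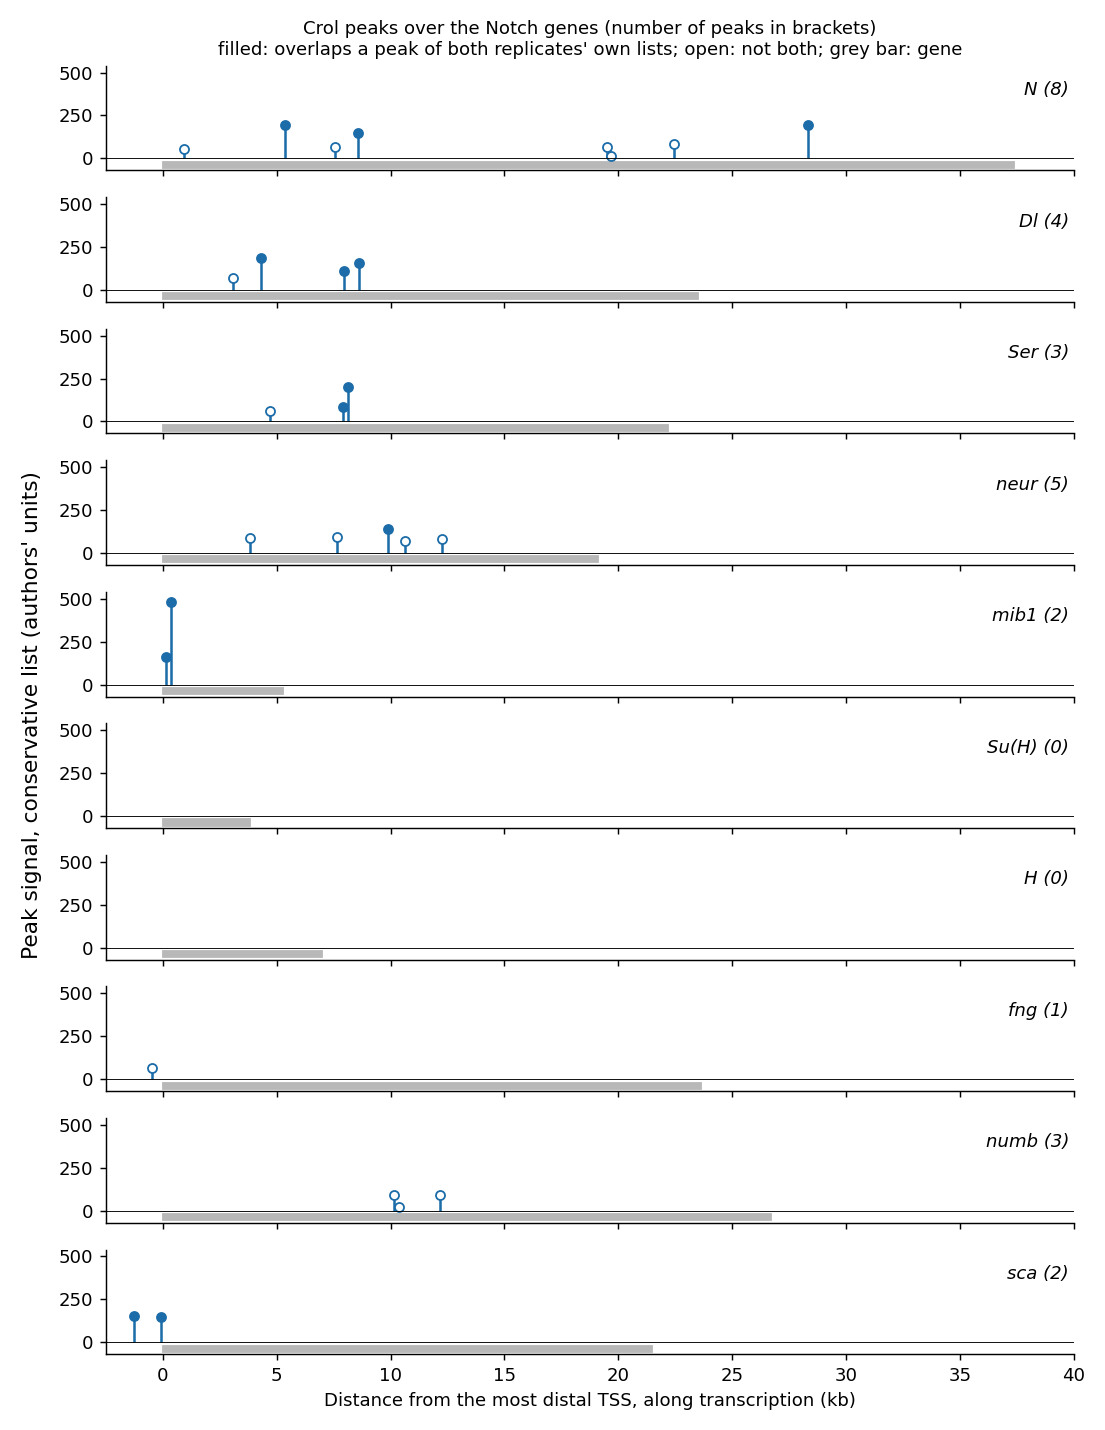
Each panel is 1 gene, drawn as a grey bar from its most distal TSS along transcription (x axis, kb), and each vertical line is a peak of the conservative list with its signal in the authors' units (y axis). Filled points overlap a peak in the separate lists of both replicates and open points do not. The peaks of N, Dl, Ser and neur lie inside the genes, that of fng and both of sca lie upstream, and mib1 has the strongest at 484.

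Member peaks were mostly intronic. Of the 28, 22 lay in introns, 3 upstream, 2 in a coding exon and 1 in a 5' UTR. The intronic share was 78.6%, against 59.7% of the 9521 pairs of a protein-coding gene and a summit in its region, and 17.9% of the member peaks lay within 500 bp of an own TSS against 27.6% of those pairs. These shares were not adjusted for region length, which had a median of 23.8 kb for members and 4.17 kb for protein-coding genes. Their median distance from an own TSS was 4364 bp. No member peak lay inside the body of another gene, but 4 distal peaks of N were nearer to the TSS of CG18508, and the peak of neur farthest into the gene was nearer to that of the antisense RNA gene asRNA:CR31429.

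The receptor gene N (FBgn0004647, chrX:3134870-3172221, plus strand) had the most peaks of the members, 8 along 37.4 kb. The strongest, at chrX:3163001-3163410 in intron 5, had a joint signal of 195, with 41.9 in replicate 1 and 68.6 in replicate 2. The ranked list between replicates paired this summit with the weaker of a pair of overlapping replicate 1 peaks, and the stronger one reached 132. Intron 1 held peaks 5368, 7568 and 8575 bp from the TSS, with joint signals of 194, 69.1 and 146. The first of these, at chrX:3140033-3140442, had 110.4 in replicate 1 and 75.6 in replicate 2, and the last had 95.9 and 54.1. A peak of 55.5 lay in coding exon 1, 942 bp from the TSS, with 33.2 and 31.9 in the replicates. The other 3 peaks lay in introns 2 and 4 with joint signals of 67.4, 16.2 and 81.0, and both in intron 2 rested on the same replicate peaks (35.1 and 36.7), so that the joint signal of 16.2 was below the value in either replicate. Thus 3 peaks of N were above the list's median signal of 113 and 5 were below it. The separate list of replicate 1 held 5 peaks in the region of N and that of replicate 2 held 4.

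Both ligand genes carried intronic peaks of moderate signal. Dl (FBgn0000463, chr3R:19302731-19326217, minus strand), which encodes the ligand of lateral inhibition, had 4 peaks, 2 each in introns 1 and 2. The strongest, at chr3R:19321713-19322122 and 4299 bp from the TSS, had a joint signal of 183, with 108.9 in replicate 1 and 80.3 in replicate 2. The peaks 7960 and 8613 bp from the TSS had joint signals of 109.7 and 156, with 59.3 and 98.4 in replicate 1 and 44.9 and 57.4 in replicate 2. The peak nearest the TSS, at 3107 bp, was the weakest at 71.2, with 40.5 and 35.7. All 4 Dl peaks were higher in replicate 1.

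Ser (FBgn0004197, chr3R:27172090-27194267, minus strand), the gene of the other ligand, had 3 peaks. Its strongest, at chr3R:27186054-27186155 in intron 4, had a joint signal of 201, with 123.9 in replicate 1 and 82.9 in replicate 2. A second summit in intron 4 had 83.1, with 35.2 in replicate 1 and the same replicate 2 peak of 82.9 behind it. On the paired values this summit had the highest replicate ratio among the member peaks, a log2 ratio of replicate 2 to replicate 1 of 1.23. The stronger replicate 1 peak of 123.9 also overlaps it, so this ratio depends on the pairing. The peak in intron 2 had 60.7, with 38.4 and 41.7. A further peak of 133 lay 2818 bp upstream of the Ser TSS, 818 bp outside the region, and Ser was its nearest gene.

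The ubiquitin ligase genes differed in where their peaks lay. At mib1 (FBgn0263601, chr3L:16006552-16011812, minus strand), the gene of a ligase for the Notch ligands, both peaks lay near the TSS. One, at chr3L:16011236-16011602 in coding exon 1 and 357 bp from the TSS, had a joint signal of 484, more than 94.3% of the list's peaks, with 265 in replicate 1 and 208 in replicate 2. The other lay in the 5' UTR, 153 bp from the TSS, with a joint signal of 158 and replicate values of 94.8 and 51.2. At neur (FBgn0002932, chr3R:9020348-9039471, minus strand), the gene of the other ligase, all 5 peaks lay in intron 1, 1912 to 6528 bp from the nearer of its 2 TSSs. The strongest, at chr3R:9029379-9029788, had 139, with 61.7 in replicate 1 and 73.0 in replicate 2. The others had joint signals of 69.8 to 96.0, all higher in replicate 1, and one of them had the lowest log2 ratio of all member peaks, -0.96. The replicate 1 list held 4 of the peaks in the region of neur and the replicate 2 list 1. A peak of 769 lay 547 bp past the end of neur, in tgo and 221 bp from the tgo TSS, and was not counted.

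The nuclear factor genes had no peak. Su(H) (FBgn0004837, chr2L:15039488-15043334), which encodes the DNA-binding protein of the pathway, and H (FBgn0001169, chr3R:20621938-20628915), which encodes its corepressor adaptor, had 0 summits in the conservative list and 0 in the ranked list between replicates, which keeps peaks below the threshold. That list held 87125 peaks on the arms, with a summit in the region of 76.5% of protein-coding genes. Replicate 1 on its own had 2 ranked peaks at each gene, with signals of 24.4 and 4.56 at Su(H) and of 16.4 and 45.2 at H, the last 992 bp from the TSS, while the ranked list of replicate 2 had 0 at both. From length, 0.462 peaks would be expected at Su(H) and 0.710 at H.

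The remaining regulators had 1 to 3 peaks each. At fng (FBgn0011591, chr3L:20925891-20949512, minus strand), which encodes a glycosyltransferase that modifies the receptor, a single peak lay 454 bp upstream of the TSS with a joint signal of 64.2, and with 48.5 in replicate 1 and 29.9 in replicate 2. The optimal list and the list of replicate 2 held 0 peaks in the region of fng. At numb (FBgn0002973, chr2L:9437469-9464184), which encodes an inhibitor of the receptor in asymmetric division, 3 peaks lay in intron 2. The peak 197 bp from the internal TSS had 91.7, with 39.6 in replicate 1 and 53.8 in replicate 2. The other summits, of 93.3 and 19.6, shared their replicate peaks, with 46.7 and 50.2, and the ranked list of replicate 2 used here holds no peak that overlaps them. The separate list of either replicate held 1 peak in the region of numb. At sca (FBgn0003326, on arm 2R), which encodes a secreted protein of neural spacing, both peaks lay upstream, 1250 and 63 bp from the TSS. Their joint signals were 154 and 149.9, with 87.1 and 84.9 in replicate 1 and 72.5 and 69.4 in replicate 2. The sca values were alike in both peaks and lower in replicate 2 than in replicate 1. The mib1 peak in coding exon 1 was higher than both sca peaks in joint signal and in each replicate.

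Ordered by the strongest peak, mib1 came first with 484, and Ser, N, Dl, sca, neur, numb and fng followed with 201, 195, 183, 154, 139, 93.3 and 64.2. The replicate values of mib1, 265 and 208, were both above every other member's. On the replicate peaks paired with these summits, the order from Ser to neur was not that of the joint signals. Among these 5 genes Ser was first and Dl second in both replicates on the paired peaks. N, placed between them by joint signal, was lowest in both (41.9 and 68.6). Between the replicates only sca and neur changed places, with 87.1 against 61.7 in replicate 1 and 72.5 against 73.0 in replicate 2. The place of N depended on the pairing, since a stronger replicate 1 peak of 132, above the Ser value, overlaps its summit. Another N peak, with a joint signal of 194, had 110.4 in replicate 1 and 75.6 in replicate 2. By those values N lay between Ser and Dl in replicate 1, and below Dl but above sca and neur in replicate 2. The paired values of the 5 genes ran from 68.6 to 82.9 in replicate 2 and from 41.9 to 123.9 in replicate 1. The width of these ranges cannot be compared, since no scaling is stated and 41.9 is the weaker N peak. With 1 group of 2 replicates no test of the order was made. Over the 28 peaks the median signal was 92.5, against 113 in the whole list, and 11 were at or above that median.

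The replicates gave member peaks like ratios to those of the list. The median log2 ratio of replicate 2 to replicate 1 was -0.28 (SD 0.52 over 28 peaks) for the members and -0.28 (SD 0.47) for all peaks, and 19 of the 28 were higher in replicate 1, against 74.1% of all. The separate list of replicate 1 held a peak overlapping 20 of them (74.6% of all peaks) and that of replicate 2 held one for 15 (64.4%). In both lists were 13 of the 28, or 46.4%, against 57.1% of all peaks, 7 were only in the list of replicate 1, 2 only in that of replicate 2 and 6 in neither. The 13 were 3 peaks of N, 3 of Dl, 2 of Ser, 1 of neur and both peaks of mib1 and sca. The highest score, 1000 on the authors' rescaled scale of repeatability, was given to 21 of the 28 and to 80.9% of all peaks. The lowest member score was 903, at N, above the list's limit of 830. Just outside it, among the 5 strongest left-out summits of each member, the highest scores were 683 at neur with a signal of 53.4, and 625 and 559 at fng with signals of 56.6 and 62.0.

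**Figure D2:**
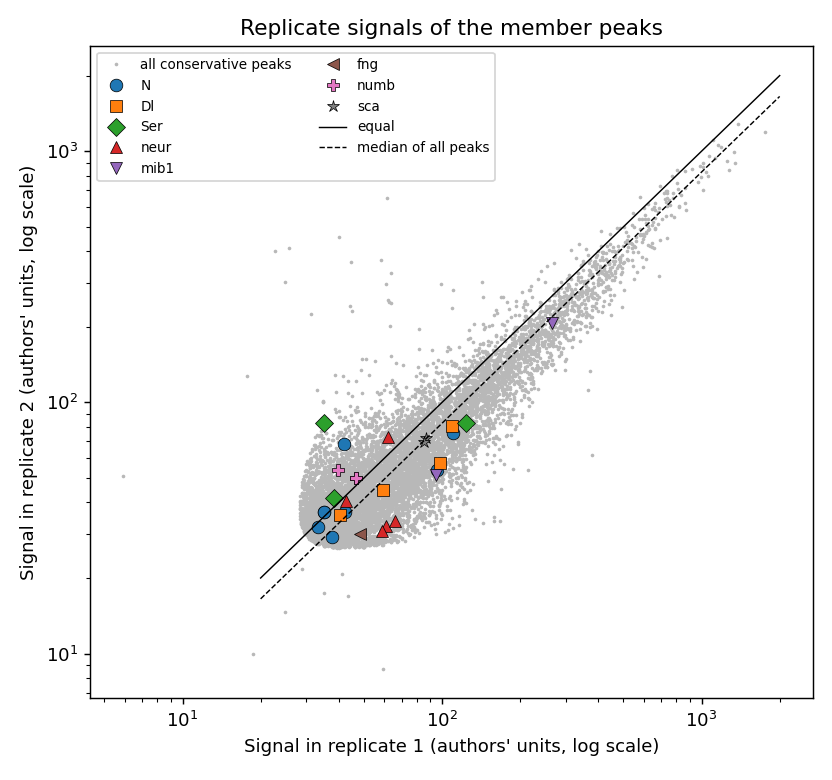
Signals of every conservative peak (grey) and of the 28 member peaks (coloured by gene) in replicate 1 (x axis) and replicate 2 (y axis), both in the authors' units on log scales. The solid line is equality and the dashed line the median log2 ratio of all peaks, -0.28. Member peaks lie among the others on both sides of that line, with the stronger mib1 peak highest and a Ser peak farthest above it. That Ser peak is drawn at its paired replicate 1 value, and a stronger replicate 1 peak overlaps it.

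Counted against region length, no member had more peaks than expected after adjustment. An exact one-sided Poisson test with Benjamini-Hochberg adjustment over all 18164 genes called 0.556% of them and 0 of the 10 members. Unadjusted, 2 members had a p under 0.05, against 4.91% of all genes. N had 8 peaks against 3.11 expected (exact p = 0.0145, adjusted p = 0.603), and neur had 5 against 1.67 (exact p = 0.0278, adjusted p = 0.741). Some summits share a replicate's peak. With these counted once, an alternative chosen after seeing the data, the members held 25 peaks, N 7 and neur 5. The Poisson test then called 0 members. Counts per gene were more spread than the Poisson model allows, with a fitted dispersion of 1.15. A negative binomial test that allows for this spread called 0 members and 0% of all genes after adjustment. Unadjusted, it called 0 members and 2.95% of genes. With it the unadjusted p was 0.113 for N and 0.1004 for neur. On simulated counts the Poisson test made false calls where there was extra spread between genes, set wider than the fitted one. The negative binomial test found few or none of the planted genes, so its 0 calls do not show that counts follow length. At least 8 peaks were found in 1.41% of protein-coding genes, but 14.6% had at least as many per kb as N. Dl, Ser, numb, mib1 and sca had 4, 3, 3, 2 and 2 peaks against 2.02, 1.91, 2.27, 0.574 and 1.86 expected, and fng had 1 against 2.03.

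**Figure D3:**
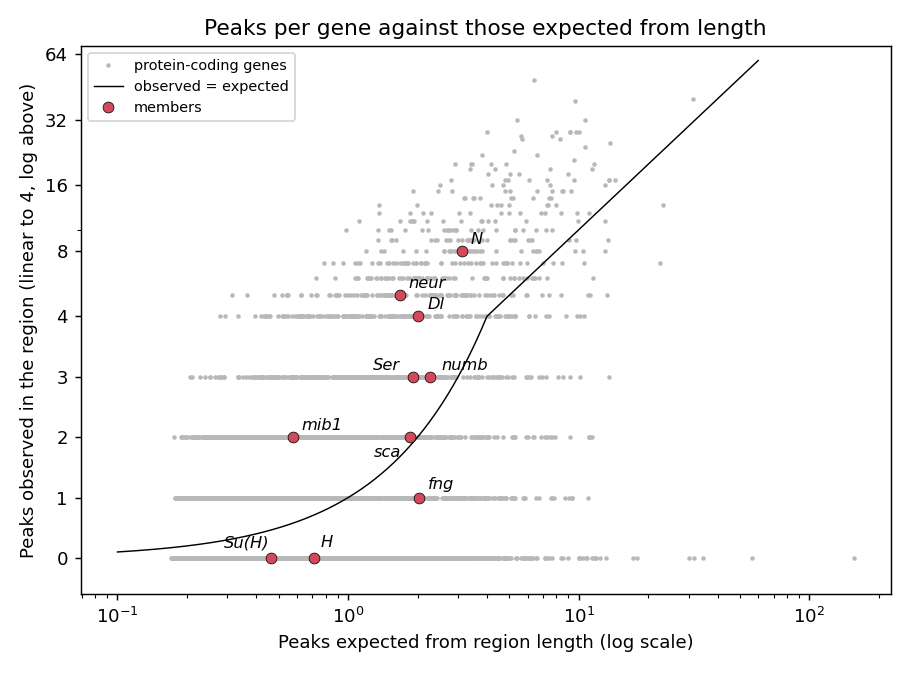
Each grey point is a protein-coding gene and each red point a member, with the peaks expected from region length on the x axis (log scale) and those observed on the y axis (linear to 4, log above). The line marks equal counts. N (8 observed, 3.11 expected) and neur (5 and 1.67) lie above the line, fng below it, and genes with more peaks at the same expected count are seen above both.

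Short words at the summits did not set the member peaks apart from all peaks beyond the counting intervals. Within 50 bp of the summit, GGGGG was found on either strand at 15 of 28 peaks, 53.6% (exact 95% interval 33.9 to 72.5), against 53.1% of all conservative peaks, and each of the 8 genes had at least 1 such peak. GGGGGG was found at 4 peaks, 14.3% (4.03 to 32.7), against 30.3%, a difference within the interval. GAGAG, the core of the word bound by GAGA factor, was found at 8 peaks, 28.6% (13.2 to 48.7), against 25.9%. CACACA was found at 3 peaks, all in N, 10.7% (2.27 to 28.2), against 13.9%. CAGGTA, a word bound by the embryonic factor Zelda, was found at 1 peak, in intron 2 of Dl, against 1.88%. CAGCTG, a form of the E box bound by proneural proteins, was found at 0 of 28 (upper bound 12.3%) against 5.68%. The Su(H) word was found at 1 peak, the strongest of Dl whose window is printed above, against 3.22%. These intervals cover counting only, and peaks of 1 gene share a locus. The median GC content of the windows around the summits was 51.0%, against 53.5% in all peaks.

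**Figure D4:**
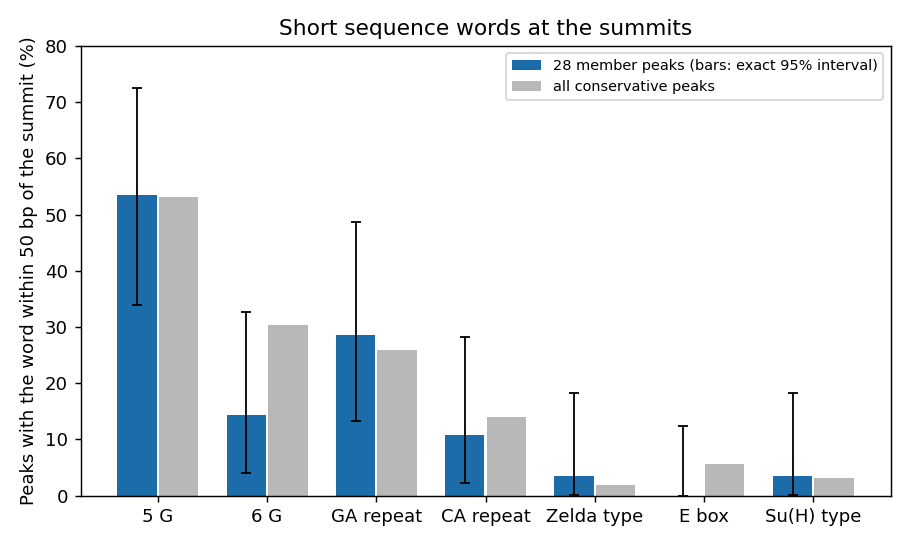
Share of peaks (y axis, %) with each of 7 short words within 50 bp of the summit, for the 28 member peaks (blue, with exact 95% intervals) and all conservative peaks (grey). The run of 5 G is at 53.6% and 53.1%, and each grey bar lies within the interval of the blue one beside it.

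Other genes of the pathway were counted in the same way from 7 lists of 60 genes. Of these, 36, or 60%, had a peak in the region, against 28.4% of protein-coding genes. Within 500 bp of a TSS, 22 had one, or 36.7% against 15.5%. The 60 regions held 143 peaks in total, against 76.5 expected from their length, and mam and brat alone held 27 and 22 of them. Some regions of neighbouring genes in the E(spl) complex overlap, so a peak can count for more than 1 of them. In the receptor cleavage list, 3 of 8 had a peak: the furin-type protease gene Fur1 (strongest signal 652), the ADAM metalloprotease gene kuz (257) and the gamma-secretase gene aph-1 (80.9). Of 12 genes of receptor modification and trafficking, 7 had one, led by the ubiquitin ligase genes Su(dx) (379) and Nedd4 (340.1) and the endosomal sorting gene lgd (223). Among 9 nuclear cofactors, 7 had one, led by the Mediator gene skd (587), the corepressor gene CtBP (565) and the coactivator gene mam (381).

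The strongest peak over the 60 genes lay at a target of the pathway. Of 7 E(spl) bHLH genes, which encode repressors induced by Notch, 5 had a peak, led by E(spl)m3-HLH (1320, with 764 in replicate 1 and 557 in replicate 2), E(spl)mbeta-HLH (265) and E(spl)mdelta-HLH (168). Of 8 Bearded family genes, whose products are known to restrain Neuralized, 4 had one, led by E(spl)m2-BFM (433), E(spl)malpha-BFM (174) and E(spl)m4-BFM (112). Of 6 other targets, 4 had one, led by the transcription factor genes ct (393), vg (192) and klu (180.0). Of 10 partners of asymmetric division, 6 had one, led by brat (595), aPKC (374) and pros (325). By the exact Poisson test 2 of the 60 genes had more peaks than expected from length, against 0.556% of all 18164 genes. The gene mam had 27 against 5.63 (exact Poisson test, adjusted p = 2.27e-07). The gene brat had 22 against 3.79 (exact Poisson test, adjusted p = 3.38e-07). The negative binomial test called neither, and 0% of all genes. On simulated counts the Poisson test made many false calls with extra spread between genes, set wider than the fitted one. The lists were also chosen with earlier results of these data known, so these calls are not independent evidence.

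**Figure D5:**
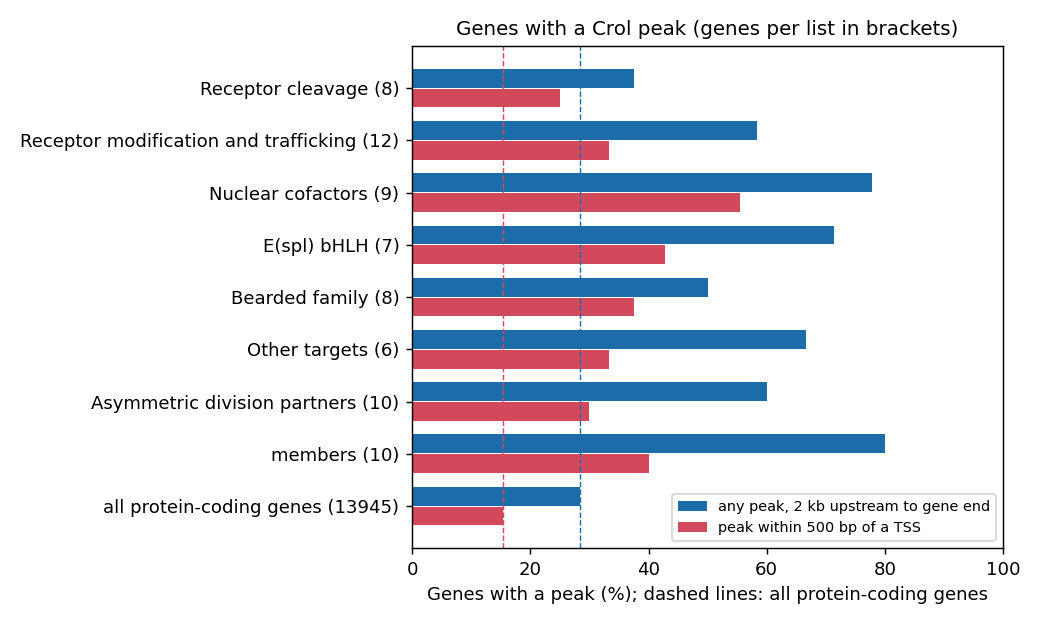
Percentage of genes in each list with any conservative peak from 2 kb upstream to the gene end (blue) and with one within 500 bp of a TSS (red), with the number of genes in brackets and dashed lines at the values of all protein-coding genes, 28.4% and 15.5%. The members are at 80% and 40%, and the blue bar of every list is right of the blue line. These shares do not allow for region length. Receptor cleavage held 14 peaks against 19.9 expected from length, and receptor modification and trafficking 9 against 9.01. Each of the other lists held more than expected, but single genes carried much of some totals. Of the nuclear cofactor peaks, 27 of 51 were at mam, and of those of asymmetric division partners, 22 of 39 were at brat. Regions in the E(spl) complex overlap, so a peak there can count more than once.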

How the data were processed

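The deposited files are peak lists on dm6, per the labels. Per the file notes, the order of peaks came from the irreproducible discovery rate, a measure of how well ranks repeat. The deposited signal is a peak height with no stated scaling, so signals were compared within 1 list. The authors' score is that rate on another scale. For the aligner and the peak caller, names and versions were not given in the sources used here. Replicate values came from the ranked list between replicates, and their columns were matched to replicates by finding each interval and signal in the replicates' own ranked lists. Genes came from Ensembl release 115 and sequences from the RefSeq copy of the same assembly. Expected counts are region length times summits per length over all 18164 genes, transposable elements left out. On simulated counts the Poisson test made no false calls without extra spread between genes and no change planted, but many with such spread. The negative binomial test made none and missed nearly all planted genes. The simulated spread was set wider than the dispersion of 1.15 fitted to these data, and changes were planted only in genes with long regions. The simulation therefore does not give the rates of false or missed calls for these data. Intervals are exact Clopper-Pearson 95% intervals. Peaks overlap when they share at least 1 bp. Alternatives were other lists, thresholds, regions, windows and a negative binomial model. The members, the pathway lists and the tests were chosen with earlier results of these data known. Named were all members with every peak, the 3 genes with the strongest peak in each pathway list, and genes whose TSS was nearer to a member peak. The genes of peaks just outside a region, the Ser upstream peak and tgo, were chosen after their values were seen. Python 3.11.15, numpy 2.4.6, pandas 2.3.3, scipy 1.17.1 and matplotlib 3.10.9 were used.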

Additional observations from a re-analysis of the deposited data

How the results depend on the processing

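A count was taken as moved when it changed by more than 1.5 times, the median signal when it changed by at least 2.36 (the SD of the replicates' medians), the median replicate ratio by at least its SD of 0.52, and a share when it left its interval. By these limits 9 of 60 alternative values for the 8 main results moved and 0 reversed. Only the replicate ratio has a sign that could reverse, since counts, shares and the median signal cannot be negative. The negative binomial alternative called 0% of all genes, so its count of members could not differ. The limits are wide for the ratio, which went from -0.28 to -0.0031 when centred on all peaks, and for small counts. The number of peaks in member regions was 15 to 21 in the separate lists of the replicates, the lower in that of replicate 2, and 11 with peaks at or above the list's median signal, when 2 members kept a promoter peak. The median signal of the member peaks was 139 with the highest score only, 96.0 with summits that share a replicate's peak counted once (an alternative chosen after seeing the data), and 53.5 and 50.2 on the scales of replicate 1 and replicate 2. The share with a G run was 14.3% for a run of 6. With the longer ranked lists 26 peaks were in both replicates. For single members, 19 of 110 counts moved by the same limit, which leaves aside smaller changes such as Ser from 3 peaks to 2 in the optimal list. With no upstream part fng and sca had 0 peaks, and by nearest protein-coding TSS N had 4 and Ser 5. No paired analysis was possible because the study has 1 group. The depth of the libraries is unknown and 2 replicates limit the precision of every signal.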
